A study of Mus musculus with 2 samples.

Results

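Sox4 peaks whose nearest annotated transcript was a noncoding RNA made up 307 of the 8730 peaks of a single pull-down library (3.52%, exact 95% binomial interval 3.14 to 3.92%). They were chosen by annotation alone. The nearest transcript had a RefSeq noncoding accession (NR prefix), its symbol did not begin with Mir, Snora, Snord, Snhg or Scarna, and the peak lay within 5 kb of its transcription start. Of 497 peaks closest to any NR transcript, 88 were left out by symbol and 102 lay beyond 5 kb. The 307 peaks carried 293 gene symbols.

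The chromatin came from C57BL/6 mouse progenitor B cells of embryonic fetal liver that had received 4 retroviral constructs in turn, with sorting after each: the biotin ligase BirA, the p190 Bcr-Abl oncogene, SE-Cre and BAP-Sox4. The tagged Sox4 was therefore added by retrovirus to cells immortalized by an oncogene. Per the labels' protocols its chromatin was captured on streptavidin, although their antibody field reads SOX4. The 2 libraries were this Sox4 bioChIP and an input library of chromatin without pull-down, of which only the pull-down's peak list was analysed here. There were no replicates, so no difference below has a replicate check and none was tested. No pull-down from cells without tagged Sox4 was analysed here.

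Sox4 is an HMG-box transcription factor that binds the minor groove of DNA at short motifs with an AACAA core and is needed for early B-cell development. Long noncoding RNAs are transcripts with no recognised protein product. Many are transcribed away from a neighbouring coding gene out of a shared CpG-rich promoter, and others have promoters of their own. Some act in the nucleus, as Xist does on the X chromosome and Malat1 at nuclear speckles, while for most no function is known.

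Most of the nearest transcripts were long noncoding RNAs in the current RefSeq gene table, but not all. That table classed 250 of the 307 peaks' genes as long noncoding (81.4%, 76.6 to 85.6%). Another 33 were classed as coding genes, 19 as pseudogenes and 4 as short structured RNAs (Terc, Rmrp, Rpph1 and Rnu11), and 1 had no match. For 23 of the 33 coding genes a coding transcript of the same symbol was listed at the same peak. The gene table placed 8 of the 19 pseudogenes on another chromosome than their peak, and 0 of the 250 long noncoding genes. All 8 of those peaks lay over the start of a coding gene. The peak assigned to Gm13363 on chromosome 1 lay over Ptp4a1, and that of Gm6793 on chromosome 2 over Hnrnpa3.

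The promoters below belong to genes named for these peaks, shown as RefSeq windows of 300 bases in the GRCm38.p6 build. Each holds 250 bases before and 50 after the start, read 5′ to 3′ on the transcript's strand. Peak positions are in mm9 as deposited, with starts counted from 0 or 1 not stated, and nothing was converted between builds. The first window stands for a start shared with a coding gene (Gm4532 with Zfp553, chr7:127233081-127233380, minus strand). Malat1 (chr19:5802623-5802922, minus strand) stands for an RNA known to be abundant, at a start with no coding gene beside it, and Jpx (chrX:103493308-103493607, plus strand) for the X-inactivation centre. Capitals mark CpG dinucleotides, of which the windows held 43, 10 and 27.

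Gm4532: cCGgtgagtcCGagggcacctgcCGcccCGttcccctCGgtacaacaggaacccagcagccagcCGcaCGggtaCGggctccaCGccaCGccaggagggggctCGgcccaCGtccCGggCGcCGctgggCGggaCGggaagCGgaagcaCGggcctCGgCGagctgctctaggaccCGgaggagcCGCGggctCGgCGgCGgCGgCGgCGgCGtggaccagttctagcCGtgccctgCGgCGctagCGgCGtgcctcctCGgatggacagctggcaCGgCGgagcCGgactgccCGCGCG
Malat1: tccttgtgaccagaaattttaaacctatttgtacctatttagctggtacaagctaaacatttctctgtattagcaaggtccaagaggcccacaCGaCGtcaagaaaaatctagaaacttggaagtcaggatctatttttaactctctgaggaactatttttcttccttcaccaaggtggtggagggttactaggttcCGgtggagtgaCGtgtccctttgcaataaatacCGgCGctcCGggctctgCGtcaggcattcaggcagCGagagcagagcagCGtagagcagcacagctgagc
Jpx: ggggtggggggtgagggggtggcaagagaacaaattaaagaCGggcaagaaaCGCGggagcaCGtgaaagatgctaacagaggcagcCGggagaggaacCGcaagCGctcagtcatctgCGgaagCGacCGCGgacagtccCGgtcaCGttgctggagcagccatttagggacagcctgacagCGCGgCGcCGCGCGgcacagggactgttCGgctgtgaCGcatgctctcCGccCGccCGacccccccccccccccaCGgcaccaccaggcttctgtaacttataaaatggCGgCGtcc

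Another 4 windows hold a Sox core, searched on both strands as AACAAAG (core 1) and, as a further form, AACAATG (core 2). The forms share their first letters. Either core was in 11 of 178 windows of long noncoding genes with a peak over the start (6.18%). The share was 6.17% at coding genes with a peak over the start and 9.36% of all windows. The 4 windows printed here belong to the long noncoding genes of 3 of the 12 highest peaks and to 2610307P16Rik, the noncoding gene beside Sox4 itself. The genes are 1700113A16Rik (chr3:88177736-88178035, minus strand), 1110038B12Rik (chr17:34952422-34952721, minus strand), 5730522E02Rik (chr11:26210527-26210826, minus strand) and 2610307P16Rik (chr13:28885373-28885672, minus strand). Capitals mark the Sox cores, which read CTTTGTT where core 1 is on the opposite strand. They also mark matches on either strand to the ETS core, searched as CCGGAAG, to the CCAAT box, searched as ATTGG, and to the TATA box, searched as TATAAA. In 1110038B12Rik the first letter of the Sox core was 116 bases before the start, and in 5730522E02Rik 9 bases after it. The 2610307P16Rik window held both cores, 237 and 214 bases before the start.

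1700113A16Rik: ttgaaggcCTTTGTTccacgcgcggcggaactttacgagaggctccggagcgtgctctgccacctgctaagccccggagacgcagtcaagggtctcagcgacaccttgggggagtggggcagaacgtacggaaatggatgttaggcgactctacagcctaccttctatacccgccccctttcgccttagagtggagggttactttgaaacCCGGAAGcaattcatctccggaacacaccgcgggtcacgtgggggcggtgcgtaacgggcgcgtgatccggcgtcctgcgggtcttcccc
1110038B12Rik: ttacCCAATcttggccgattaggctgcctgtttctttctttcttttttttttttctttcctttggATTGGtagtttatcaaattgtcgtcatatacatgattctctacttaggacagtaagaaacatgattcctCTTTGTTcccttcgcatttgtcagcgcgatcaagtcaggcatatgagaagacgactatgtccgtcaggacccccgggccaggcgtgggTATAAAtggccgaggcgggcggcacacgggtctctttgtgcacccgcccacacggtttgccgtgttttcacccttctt
5730522E02Rik: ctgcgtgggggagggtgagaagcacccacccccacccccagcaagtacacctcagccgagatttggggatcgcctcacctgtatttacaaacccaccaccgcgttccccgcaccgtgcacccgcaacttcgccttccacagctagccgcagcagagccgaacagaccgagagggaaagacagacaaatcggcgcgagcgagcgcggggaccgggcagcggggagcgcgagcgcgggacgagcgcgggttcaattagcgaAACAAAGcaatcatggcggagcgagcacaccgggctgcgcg
2610307P16Rik: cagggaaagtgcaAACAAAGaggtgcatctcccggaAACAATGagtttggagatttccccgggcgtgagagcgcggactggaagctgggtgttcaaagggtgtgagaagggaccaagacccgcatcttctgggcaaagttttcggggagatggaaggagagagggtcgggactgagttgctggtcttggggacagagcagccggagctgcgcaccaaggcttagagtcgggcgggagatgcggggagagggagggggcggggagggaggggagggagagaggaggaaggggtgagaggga

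The strongest noncoding-closest peak was at B330016D10Rik on chromosome 4 (chr4:141100957-141103480). It held 527 tags, the whole-number read count of the peak (exact 95% Poisson interval 483 to 574), at 27.8-fold over the peak caller's background. It scored 2281 and ranked 18 of all 8730 peaks. The score is read as minus 10 log10 of the caller's p-value, and score, fold and tags are the authors' own values throughout. It lay over the B330016D10Rik start, and the nearest listed coding start, that of the transcriptional corepressor gene Spen, was 6446 bp away. Gm4532 came next with 348 tags (312 to 387) at 18.6-fold (score 1934). Its peak lay over the start of the zinc-finger gene Zfp553 as well (chr7:134375843-134377258).

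Peaks over another gene's coding start and peaks not over one were evenly mixed among the strongest. Here and below, a coding start beside the named transcript is counted only for a gene of another symbol. Of the 12 highest peaks by score, all 12 lay over the start of the named transcript, 6 also over another gene's coding start and 6 not. Patz1, itself a coding gene, is among the 6 not over one. The peak at 9430083A17Rik had 278 tags at 21.8-fold (score 1348) and also covered Spin1, a reader of histone H3 methylation. The Malat1 peak (chr19:5802427-5804167) had 335 tags (300 to 373) at 20.8-fold (score 1321), with no coding gene listed. Listed distances for peaks upstream of a start reached 25 kb at most, while other listed distances could be longer. 1700113A16Rik had 237 tags at 19.1-fold, with Mef2d as the nearest coding gene at 35053 bp. 1110038B12Rik had 227 tags at 15.2-fold, and the start of the heat-shock gene Hspa1b was 6223 bp away. 5730522E02Rik had 193 tags at 17.8-fold and no coding gene listed.

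Further peaks of the top 12 lay at or beside the starts of coding genes. 4921531C22Rik had 157 tags at 17.7-fold over a start shared with Taf4a, a subunit of the general transcription factor TFIID. Another 3 were noncoding variants of coding genes. Brd2, a BET-family bromodomain protein, had 543 tags at 10.5-fold in a broad peak that also covered H2-DMa. Rmi1, of the BLM helicase complex, had 321 tags at 12.9-fold over a start shared with the RNA-binding protein gene Hnrnpk. Patz1, a zinc-finger transcription factor, had 297 tags at 10.9-fold.

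At the other end, the 5 lowest scores lay just above the lowest score in the whole list (50.03). They were 50.2 at the pseudogene Gm15760, whose peak covered Abcf3, 51.2 at Gm15417, 51.9 at 9030404E10Rik, 52.2 at A630019I02Rik and 52.4 at Rpph1. Rpph1, the RNA subunit of ribonuclease P, had 38 tags (27 to 52) at 3.87-fold in a peak that also covered Parp2.

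**Figure D1:**
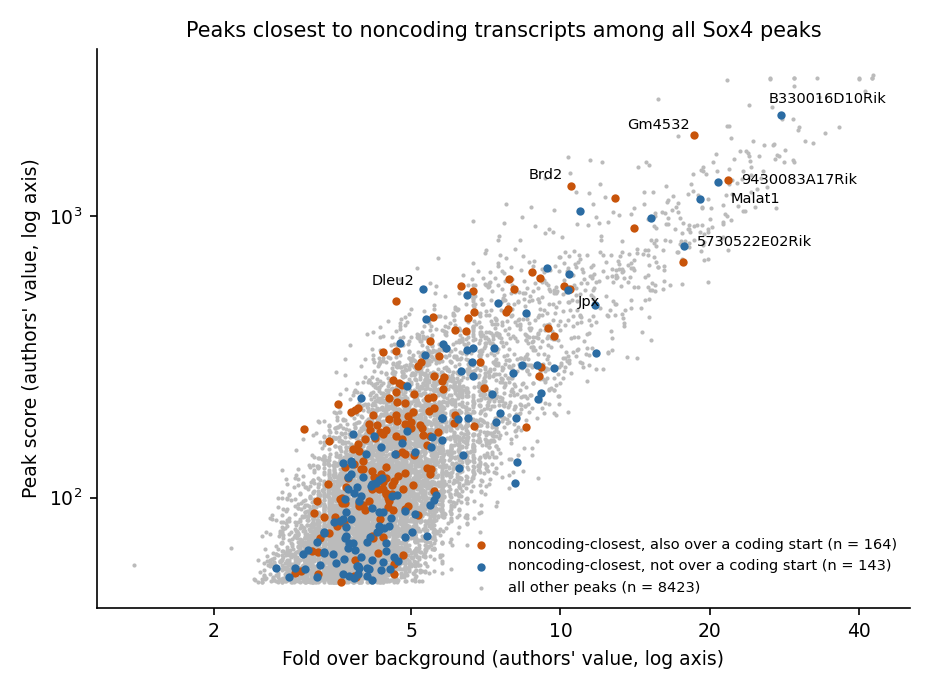
Score against fold over background, both log axes, for the 307 noncoding-closest peaks (coloured) and the 8423 other peaks (grey). Coloured points run from scores of 50.2 to 2281 within the cloud of the other peaks, and those also over another gene's coding start (orange, n = 164) and those not (blue, n = 143) both reach folds above 20.

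In strength the noncoding-closest peaks as a whole scored slightly above coding-closest ones, but those not over another gene's coding start did not. The median score of all 307 was 129 (exact binomial interval of the median 116 to 151), against 113 (111 to 116) for the 6235 peaks within 5 kb of the start of a nearest coding transcript. The 164 noncoding-closest peaks that also covered another gene's coding start had a median score of 162 (129 to 179). The 143 that did not had 103 (88.7 to 122) and a median of 69 tags. Without the peaks within 1 kb of such a start, the noncoding-closest median was 109, and for the 110 with none within 5 kb it was 115 (98.1 to 145), beside the coding-closest 113. Median folds were close, 4.55 (4.39 to 4.68) in noncoding-closest and 4.44 (4.39 to 4.49) in coding-closest peaks, with overlapping intervals. Noncoding-closest peaks held a median of 81 tags over 1013 bp, and coding-closest peaks 76 tags over 963 bp. Per kb of peak the medians were 80.4 tags in noncoding-closest and 77.1 tags in coding-closest peaks. At 10-fold or above stood 18 noncoding-closest peaks (5.86%, 3.51 to 9.11%), against 4.03% of coding-closest peaks and 4.39% of all peaks, and the noncoding interval holds both. At 5-fold or above stood 113 of them (36.8%, 31.4 to 42.5%), against 34.1% of coding-closest peaks and 33.8% of all peaks. The median score of all peaks (105) was reached by 189 noncoding-closest peaks (61.6%, 55.9 to 67.0%), against 54.5% of coding-closest peaks. These intervals take the peaks of 1 library as independent draws and cover no variation between libraries. The Poisson intervals of tags cover read counting only, and reads without molecular identifiers are not independent molecules.

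Another gene's coding start stood beside noncoding-closest peaks far more often than beside coding-closest ones in this list. The noncoding-closest peaks covered the start of another, coding gene in 164 of 307 cases (53.4%, 47.7 to 59.1%), against 537 of 6235 coding-closest peaks (8.61%, 7.93 to 9.34%). A coding start of another gene lay within 1 kb of 180 noncoding-closest peaks (58.6%) and of 10.5% of coding-closest peaks. Within 5 kb the shares were 64.2% of noncoding-closest and 17.4% of coding-closest peaks. No other coding gene was listed at all for 37 noncoding-closest peaks (12.1%, 8.63 to 16.2%), against 34.1% of coding-closest peaks.

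In all 164 shared peaks the noncoding and the coding transcript were tied at a distance of 0, so which of them the list names as closest was settled by the authors' annotation and not by distance. The same question can be asked without that choice. Of 266 peaks over the start of any eligible NR transcript, from a gene without a listed coding variant, 190 also covered a coding start (71.4%, 65.6 to 76.8%). Genes were told apart by symbol alone, and pseudogenes such as Nutf2-ps1, whose peak covered Nutf2, are included. Of 5454 peaks over any coding start, 542 covered the start of another coding gene (9.94%, 9.16 to 10.8%). Position over the named start itself did not separate the groups, with 83.4% of noncoding-closest and 84.3% of coding-closest peaks overlapping it. Among the noncoding-closest peaks off the start, 19 lay upstream and 32 downstream.

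**Figure D2:**
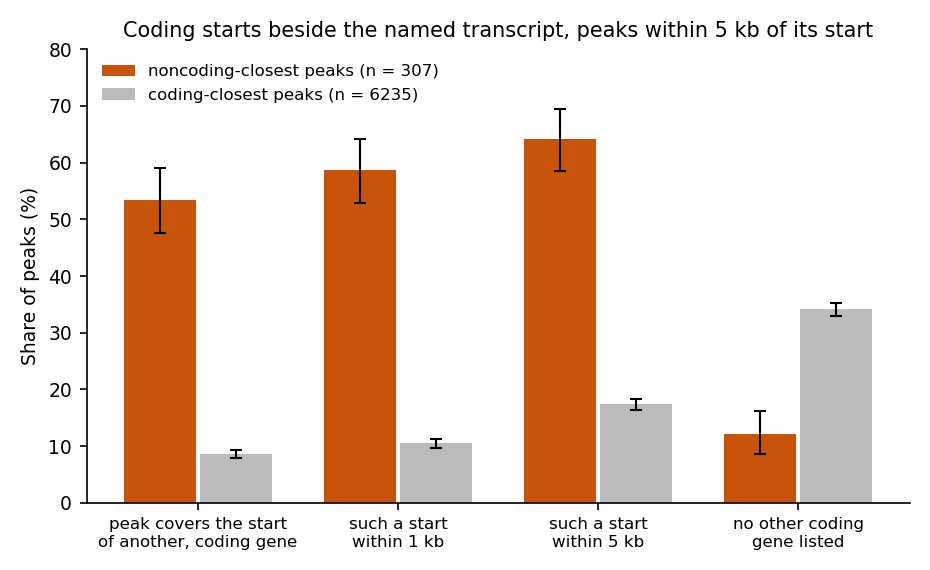
Share of noncoding-closest peaks (orange, n = 307) and coding-closest peaks (grey, n = 6235) that cover, or lie within 1 or 5 kb of, the start of another coding gene, or for which none is listed; bars are shares in % and whiskers exact 95% binomial intervals. The first pair stands at 53.4% against 8.61% and the last at 12.1% against 34.1%.

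In noncoding-closest peaks, long noncoding RNAs and coding genes paired under a peak ran in opposite directions wherever both strands were known. Among the 140 pairs of a long noncoding RNA and a coding gene under 1 peak, strands were known for 116 (82.9%), and in all 116 they were opposite (lower limit 96.9%). Tied peaks that the list names for the coding gene, such as Raver1 with Raver1-fdx1l, gave no pair. Nor could a noncoding variant that carries the coding gene's own symbol. The share therefore depends in part on naming and is not that of all such transcripts. Over all 165 pairs, pseudogenes and coding genes included, strands were known for 126, and 125 were opposite. The pair on the same strand was the pseudogene Gm9855 with Tdg, a DNA glycosylase gene. Strands came from the RefSeq windows or, where a gene had none, from the sign of the distances listed for it, and for symbols with both sources 2425 of 2430 gave the same strand. In RefSeq, 9430083A17Rik and Spin1 start back to back 153 bp apart, 4921531C22Rik and Taf4a 207 bp apart, and Tug1 and Morc2a 623 bp apart. Gm4532 and Zfp553 overlap head to head with starts 69 bp apart, Gas5 and Zbtb37 with starts 248 bp apart, and BC031361 and the kinase gene Gsk3b with starts 259 bp apart. These examples show both kinds and not how common each is. A tally over the pairs is void, since both start positions were in the table for only 104 of the 140.

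By median, peaks over a shared start were the wider and higher-scoring ones among noncoding-closest peaks. The 165 peaks over the named start and that of any other gene had a median score of 161 (129 to 177) and a median width of 1144 bp. The 91 peaks over the named start alone had a median score of 122 (99.2 to 157) and a width of 968 bp, and the 51 peaks off it 85.0 (69.9 to 104) and 776 bp. The score intervals for the shared start and for the named start alone overlap. A wider peak can more easily cover a further start, so width and position are not independent. Coding-closest peaks at the same positions had median scores of 119 (112 to 129, n = 565), 120.1 (117 to 123, n = 4689) and 85.4 (81.6 to 89.7, n = 981). Their median widths were 999, 995 and 831 bp. The noncoding-closest score interval for the shared position touched that of coding-closest peaks at 129, and those for the other positions overlapped. Folds of at least 10 were found in 8 of 164 noncoding-closest peaks over a coding start (4.88%, 2.13 to 9.39%) and in 10 of 143 not over one (6.99%, 3.40 to 12.5%). Of the 110 peaks with no other coding start within 5 kb, 9.09% (4.45 to 16.1%) had one, and these intervals overlap.

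**Figure D3:**
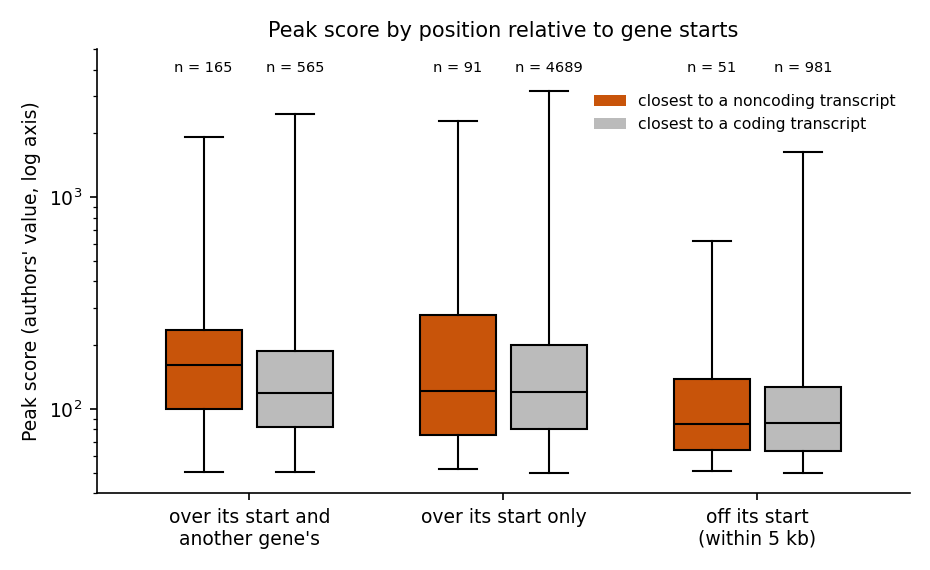
Peak score (log axis) of noncoding-closest (orange) and coding-closest (grey) peaks by position: over the named start and another gene's, over the named start only, or off it within 5 kb. Boxes are quartiles with the median, whiskers the lowest and highest score; the orange medians run 161, 122 and 85.0 and the grey ones 119, 120.1 and 85.4.

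In CpG count, the promoter sequences followed the same division. Windows were found for 165 of 201 long noncoding genes with a peak over their start, and for 4249 of 5213 coding genes. The median window held 30 CpG dinucleotides for noncoding genes whose peak also covered a coding start, like Gm4532 above, and 20 for those whose peak did not. It held 24 for coding genes with a peak over the start, 5 for long noncoding genes without a peak within 5 kb and 7 over all 32851 windows of the table. Starts of noncoding genes whose peak covered no other gene's coding start are called lone here and below. Such a coding start could still lie nearby, as Arhgap21 did at 311 bp from the Gm13375 peak. The ETS core, a motif common in CpG-rich promoters, was in 22.1% of windows at shared starts, 17.2% at lone noncoding starts, 19.5% at coding genes with a peak, 5.79% at noncoding genes without one and 8.86% of all windows. The CCAAT box was in 33.6% of shared and 36.2% of lone noncoding windows, and in 37.4% of all windows. The TATA box was in 0.820% of shared, 6.90% of lone noncoding and 13.6% of all windows. Shared and lone intervals overlap for each of these motifs. They were 15.1 to 30.5% and 8.59 to 29.4% for the ETS core, and 0.0208 to 4.48% and 1.91 to 16.7% for the TATA box.

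Sox cores stood in few windows. AACAAAG was in 1 of 122 windows at shared starts (0.820%, 0.0208 to 4.48%) and in 5 of 58 at lone noncoding starts (8.62%, 2.86 to 18.98%), with overlapping intervals. It was in 4.15% of windows at coding genes with a peak, 6.82% at long noncoding genes without a peak and 5.85% of all windows. AACAATG was in 1.64% of shared, 6.90% of lone noncoding and 3.78% of all windows. Windows and not genes were counted, and the intervals take windows as independent. 1110038B12Rik gave 2 of the 5 lone noncoding windows with AACAAAG, and 9430008C03Rik more than 1 of those with AACAATG. Median GC content was 68.8% at shared, 61.7% at lone noncoding and 52.7% over all windows, and its part in these shares was not tested.

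Among long noncoding genes with a peak over the start, the share with AACAAAG was highest where the peak was strong. This core was in 4 of 13 windows where the peak reached a fold of 10 (30.8%, 9.09 to 61.4%), in 2 of 52 at folds of 5 to 10 (3.85%, 0.469 to 13.2%), and in 0 of 113 below 5 (at most 3.21%). Coding genes with a peak over the start had 17.3% (12.9 to 22.5%), 4.97% (3.99 to 6.12%) and 2.79% (2.27 to 3.40%) in the same classes. For long noncoding genes the intervals at folds of 10 or more and of 5 to 10 overlap. With AACAATG counted too, their shares were 30.8%, 5.77% (1.21 to 15.9%) and 3.54% (0.973 to 8.82%). AACAATG thus added windows in the lower classes and none at folds of 10 or more. The coding shares were then 19.7%, 7.82% and 4.38%. The 4 windows at folds of 10 or more belong to the 3 genes printed above, 1700113A16Rik, 1110038B12Rik and 5730522E02Rik, because 1110038B12Rik has 2 overlapping windows. The Malat1, Jpx and Gm4532 windows held neither core, which says only that these letters are not in those 300 bases.

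**Figure D4:**
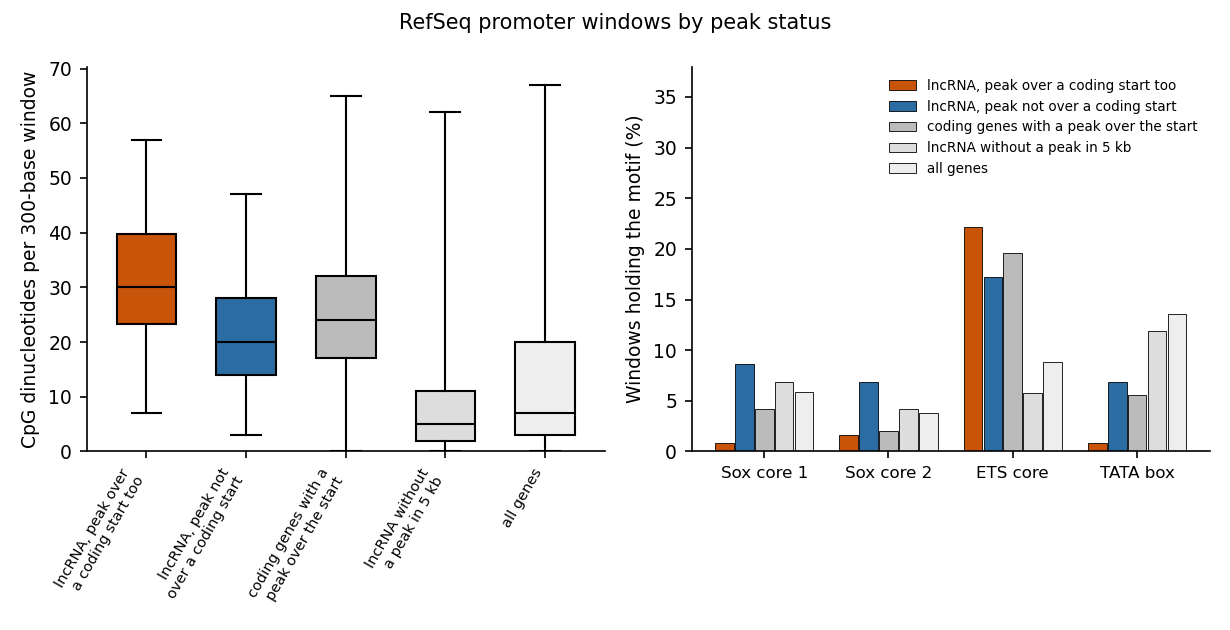
CpG dinucleotides per RefSeq window (left; boxes are quartiles with the median, whiskers the extremes) and share of windows with each motif (right, %), for long noncoding genes with a peak also over a coding start (orange) or not (blue), coding genes with a peak over the start, long noncoding genes without a peak, and all genes. The CpG medians run 30, 20, 24, 5 and 7, and the ETS core is in 22.1% of the first and 8.86% of the last.

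At genes with known roles, X inactivation and nuclear structure, at 3 of 4 genes each, were the fullest of 6 lists that together hold 36 noncoding RNAs. Of the 35 found in the gene table, 14 had a noncoding-closest peak. By a wider measure, any peak within reach whichever transcript it was assigned to, 333 of 3290 long noncoding genes with an NR accession (10.1%, 9.11 to 11.2%) had a peak within 5 kb of a start, against 32.8% of 20953 coding genes. The 14 of 35 cannot be read against that share, since it counts nearest transcripts alone, which leaves out Mir17hg and Rnu12, and since 9 of the listed RNAs are short structured ones. The lists were made with results of these data known and hold much-studied genes, so their counts are descriptions. RefSeq genes newer than the authors' annotation could not have been listed.

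In the X-inactivation centre 3 of 4 genes had such a peak. Jpx, an RNA that activates Xist, had 155 tags (132 to 181) at 10.3-fold with a score of 548 over its start (chrX:100688433-100689725). Xist, which coats the inactive X, had 104 tags (85 to 126) at 6.67-fold with a score of 272, in an exon 867 bp inside its start and 10.7 kb from the Jpx peak. Ftx had 62 tags (48 to 79) at 4.16-fold with a score of 112, in an intron 1008 bp inside its start. A much stronger Ftx peak lay just outside the window, 5840 bp inside the start, with 336 tags at 30.2-fold and a score of 2016, rank 25 of all peaks. Tsix, the antisense RNA of Xist, had no peak within 5 kb of its start.

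Of the nuclear RNAs, Malat1 stood far above the others. Its 20.8-fold compares with 3.81-fold for both Neat1, the scaffold of paraspeckles (114 tags, 94 to 137, score 168.5), and Tug1 (139 tags, 117 to 164, score 149). Both folds were below the median of all peaks, 4.43. The Malat1 and Neat1 peaks lay 40.9 kb apart with 1 other peak between them. Firre had a peak 14819 bp inside its start and none within 5 kb.

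In the list of growth-linked RNAs, Gas5, a host of small nucleolar RNAs, had 157 tags (133 to 184) at 5.45-fold with a score of 359, over a start shared with Zbtb37. Epb41l4aos, which the list names 2410004N09Rik, had 61 tags (47 to 78) at 6.25-fold with a score of 127. Trp53cor1, a p53-linked RNA, had its nearest peak 6434 bp from the start, and Pvt1 and Lincpint had none listed. Among blood and immune RNAs, Dleu2, the host of miR-15a and miR-16-1, had 222 tags (194 to 253) at 5.29-fold with a score of 552. Mir17hg, the host of the miR-17-92 cluster, lay 1668 bp from a peak of 403 tags at 12.1-fold with a score of 1563, which the list assigns to Mir17, a symbol outside the selection. Gm14005 had its nearest peak 16354 bp away, and Hotairm1 and Mir155hg had none listed. Mir142hg was not in the gene table.

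Of the 8 imprinted RNAs, Nespas had a peak. This antisense RNA of the Gnas locus had 208 tags (181 to 238) at 5.35-fold with a score of 432. H19, Meg3, Rian, Mirg, Kcnq1ot1, Airn and Peg13 had none listed. Of 9 short structured RNAs, 4 had a peak. Terc, the telomerase RNA, had 80 tags (63 to 100) at 9.01-fold with a score of 225. Rnu11, of the minor spliceosome, had 59 tags (45 to 76) at 4.17-fold. Rmrp, the RNA of ribonuclease MRP, had 76 tags (60 to 95) at 4.32-fold over a start shared with Ccdc107. Rnu12 lay 29 bp from a peak assigned to Poldip3, and Rn7sk, Rny1, Rny3 and Vaultrc5 had none listed.

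**Figure D5:**
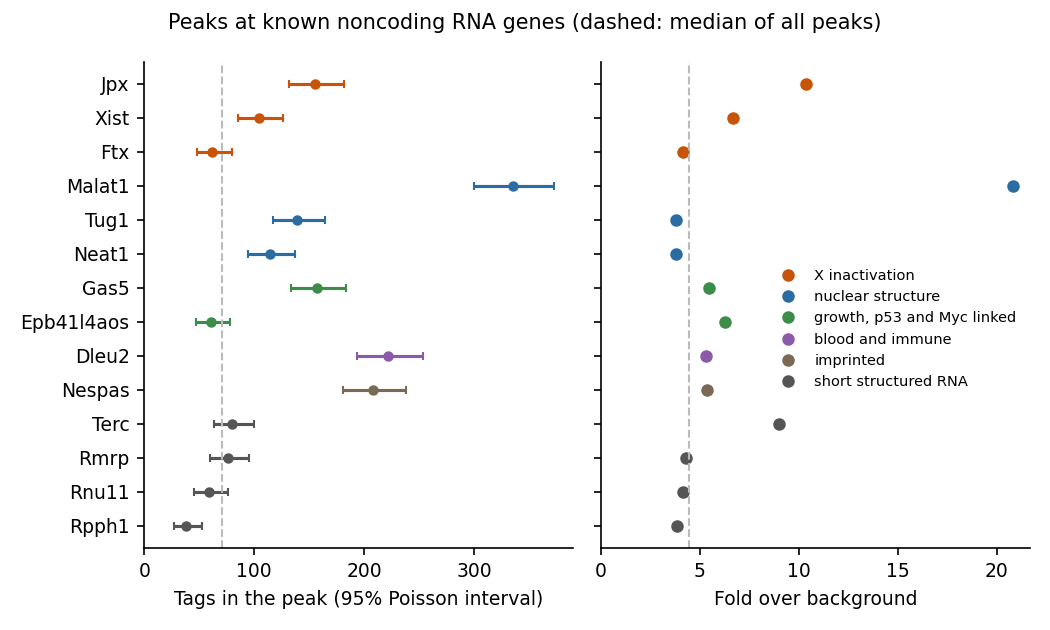
Tags in the peak with exact 95% Poisson intervals (left) and fold over background (right) for the 14 listed noncoding RNAs with a noncoding-closest peak, coloured by list; dashed lines are the medians of all peaks, 71 tags and 4.43-fold. Malat1 stands apart with 335 tags and 20.8-fold, followed in fold by Jpx (10.3) and Terc (9.01).

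A pair of noncoding-closest peaks was found at 14 genes, and no gene had more. At 11 of these genes the higher peak lay over the start. The higher scores ran from 61.8 to 332 and the lower from 51.2 to 185. 2610307P16Rik, whose window with both Sox cores is printed above, had 164 tags at 6.63-fold with a score of 302 over its start, and 54 tags at 4.44-fold with a score of 64.8 at 987 bp upstream. Its start peak lay 72.0 kb from the farther of the Sox4 peaks. 1190002F15Rik, now named Lockd, had 155 tags at 4.90-fold over its start and 70 tags at 3.23-fold 1404 bp upstream. 5031425E22Rik had 239 tags at 4.67-fold over a start shared with Mll5, a SET-domain gene, and 65 tags at 4.13-fold 2657 bp inside it. 2010308F09Rik on the X chromosome had both peaks off its start, with folds of 11.8 and 7.40.

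The higher peak was also off the start at 4933439C10Rik, with scores of 165 upstream and 143 over the start, and at E130018N17Rik, with 61.8 upstream and 52.7 over the start. The other genes with a pair were 0610009L18Rik (with Actg1), 0610012G03Rik (with Ncbp2), 1110020A21Rik (with Ppm1b), 2010003O02Rik, now Smim27 (with Topors), 2310015A10Rik, 4930509E16Rik (with Rfx7), D930048N14Rik (with N4bp3) and Gm15417, where a name in brackets is a coding gene whose start 1 of the peaks covered.

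The X chromosome had few peaks in all, and noncoding-closest peaks were a higher share of them than on the autosomes. They were 11 of its 92 peaks (11.96%, 6.12 to 20.4%), against 296 of 8638 autosomal peaks (3.43%, 3.05 to 3.83%). In number, the 11 lay within the range of single autosomes, 8 to 35, while its 92 peaks in all lay below theirs, 225 to 797. The 11 include Jpx, Xist, Ftx and both peaks of 2010308F09Rik. Their median fold was 4.51, against 4.56 for those on autosomes. At the edge of the 5 kb window, the farthest peak inside was the 7.40-fold peak of 2010308F09Rik at 4881 bp. The nearest outside was at B230217O12Rik, 5003 bp from the start, with 46 tags at 4.95-fold.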

How the data were processed

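The deposited file lists the peaks of 1 Sox4 bioChIP library. The mm9 build, MACS 1.4.2 and Bowtie 0.12.8 are named in the submitters' processing notes; parameters, the control used for calling and the depth of both libraries are not given in the sources used here. The authors' tag numbers are raw read counts for each peak. The fold, as deposited by the authors, is a ratio of tags to the caller's background on a linear scale. The score, as deposited by the authors, was taken to be a p-value as minus 10 log10. The authors' columns also give distances in bp from the peak interval to RefSeq starts and ends, with 0 where they overlap. RefSeq (GRCm38.p6) gave gene classes, strands and promoter windows: 291 peaks matched by accession, 10 by symbol, 5 by older symbol and 1 not at all. Windows were searched on both strands, with motif search and median intervals tested on simulated data.

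Shares have exact Clopper-Pearson 95% intervals, tags exact Poisson ones and medians exact binomial ones. With 1 library, no test was made. Python 3.11.15, pandas 2.3.3, numpy 2.4.6 and SciPy 1.17.1 were used. The members, lists and naming rule were chosen with earlier results of these data known. The rule names the 12 highest and 5 lowest scores, genes with 2 or more noncoding-closest peaks and all list genes; 1 of the 12 is not reported here. BC031361, B230217O12Rik, Gm9855, Gm13363 and Gm6793 were named after their values were seen. Alternatives tried were the distance window, the gene class, the score and fold limits, nearby coding starts and 1 peak per gene.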

Additional observations from a re-analysis of the deposited data

How the results depend on the processing

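The median fold of the noncoding-closest peaks stayed between 4.44 and 4.62 and the share near a coding start between 53.4 and 64.2% under the alternatives tried for each. Their number, 307, was 189 among scores at or above the median of all peaks and 18 at a fold of 10 or more. Without peaks within 1 kb of another gene's coding start, 127 peaks remained, and the median score was 109, the tags 70 and the width 885 bp. With peaks over the start only, the width was 1081 bp. With the limit at 5-fold in place of 10-fold, the share was 36.8%, beside 33.8% of all peaks. Fewer peaks or a lower limit enter by construction. No paired analysis was possible because there was 1 library per kind and no test. The unknown depth, the single library and the unknown control limit all values.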

Other observations

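Another 143 peaks had a noncoding transcript of the same kinds within 5 kb without its being the one named as closest. Of these, 105 concerned long noncoding genes, 44 covered the noncoding start and 46 were tied at the same distance. Among the strongest were a peak of 255 tags at 17.7-fold over Arih1, a ubiquitin ligase gene, 3712 bp from the Gm20199 start. A peak of 364 tags at 7.47-fold covered the starts of both 1600020E01Rik and the RNA-binding protein gene Pcbp1. A peak of 265 tags at 10.2-fold covered 5730420D15Rik and Socs2, an inhibitor of cytokine signalling. The peak over Gadd45a, a stress-response gene, had 136 tags at 15.1-fold and lay 350 bp from the E230016M11Rik start. These 4 were chosen after their values were seen.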
